A study of Homo sapiens with 96 samples.

Results

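The 10 genes described here are markers of mast cells, basophils and eosinophils: TPSAB1, TPSB2, CPA3, HDC, HPGDS, MS4A2, FCER1A, ENPP3, PRG2 and CLC. They were taken by gene symbol from a table of 60552 gene rows, and each symbol matched a row. The table holds RNA sequencing counts of total RNA from 6 human acute myeloid leukaemia (AML) cell lines, each treated in 4 ways for 2 or 4 days, with 2 libraries in each of the 48 groups and 96 libraries in all. The study asked how a retinoid and an inhibitor of the histone demethylase LSD1 act on these lines, alone and together.

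The lines were HL60, Kasumi1, MOLM13, MV411, OCIAML3 and THP1, each an established human leukaemia cell line. In the Combo groups the cells received 1 µM GSK2879552, an LSD1 inhibitor, with 100 nM all-trans retinoic acid (ATRA), the ligand of the retinoic acid receptors. The ATRA groups received 100 nM ATRA alone. The 552A groups were read as 1 µM GSK2879552 alone, because this is the remaining arm of the stated treatments and its name ends in the same digits. The DMSO groups received 0.1% DMSO, the vehicle. Nothing in the labels says that the 2 libraries of a group came from separate cultures. A p-value from single libraries, within a line or between lines, therefore reflects how far the libraries of a group lie apart. That spread may be purely technical. In the tests across lines the 2 libraries were summed, and a p-value there reflects how much a drug effect varies between lines.

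Library totals ran from 12.82 M to 40.95 M counts, with a median of 22.88 M. The 2 libraries of every group differed by more than sampling noise. With earlier results of these data known, 5 libraries were set apart for the dependence of their counts on the GC content of the genes. Of the Combo libraries these were the first of Kasumi1 and the second of MV411, both at day 4, and of the 552A libraries they were the first of MOLM13 at day 4 and the second of OCIAML3 and of THP1, both at day 2. Their log2 level changed by -0.988 to -0.494 per 10% of GC, against -0.574 to 0.414 in the other 91 libraries, a range that includes the MOLM13 library. Steeper than that library, though not set apart, were MV411 DMSO day 4 replicate 2 (-0.574) and OCIAML3 Combo day 4 replicate 2 (-0.535). So was HL60 ATRA day 4 replicate 2 (-0.521). CD38 and CYP26A1, both targets of retinoic acid receptors, checked the labels: at day 4 CD38 was called higher in Combo and in ATRA cells than in DMSO cells in all 6 lines, and CYP26A1 in 5 lines (all but Kasumi1).

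Mast cells and basophils carry the high-affinity IgE receptor. Crosslinking of its bound IgE releases granules that hold histamine and, in mast cells, heparin, tryptases and carboxypeptidase A3. Eosinophils store cationic proteins such as major basic protein in their granules, and together with basophils they are rich in galectin-10, the protein of Charcot-Leyden crystals. These lineages descend from myeloid progenitors that express the transcription factors GATA2 and GATA1.

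The tryptases TPSAB1 and TPSB2 lie close together on chromosome 16, and their sequences are shown first. They differ so little that reads can be counted for the wrong member or for neither. Reads counted for neither would lower the levels given for both genes, which was not tested. In GENCODE 29 their coding sequences (825 and 846 bases) differed at 4 of 825 aligned bases, an identity of 99.5%, and shared an identical run of 667 bases. TPSD1, another tryptase gene, shared 88.9% of its aligned coding bases with TPSAB1. All 4 differences between TPSAB1 and TPSB2 fell within the stretch of 120 coding bases shown here, where capitals mark them. It is coding bases 39 to 158 of TPSAB1 (GRCh38, spliced from chr16:1240977-1241249, plus strand) and coding bases 60 to 179 of TPSB2 (chr16:1229641-1229913, minus strand).
TPSAB1: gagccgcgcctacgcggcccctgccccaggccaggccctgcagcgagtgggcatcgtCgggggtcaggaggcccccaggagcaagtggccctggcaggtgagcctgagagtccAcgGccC
TPSB2: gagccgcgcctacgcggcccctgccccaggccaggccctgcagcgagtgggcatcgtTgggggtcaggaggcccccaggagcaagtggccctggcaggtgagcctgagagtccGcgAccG

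The promoters of CLC, HPGDS and FCER1A are shown because these 3 genes gave large and opposite changes. They come from RefSeq (GRCh38.p14), which gave a promoter for 7 of the 10 genes, and run 5′ to 3′ upstream of the annotated start, without bases that GENCODE 29 places in an exon. Capitals mark GATA words, that is the words AGATAA or AGATAG, and likewise the words TGATAA or else the letters TGATAG, searched on both strands of the 250 bases before the start. They do not overlap each other. At least 1 word was present in 5 of the 7 promoters and in 22.3% of all 35116 promoters.
CLC, chr19:39738030-39738279, minus strand: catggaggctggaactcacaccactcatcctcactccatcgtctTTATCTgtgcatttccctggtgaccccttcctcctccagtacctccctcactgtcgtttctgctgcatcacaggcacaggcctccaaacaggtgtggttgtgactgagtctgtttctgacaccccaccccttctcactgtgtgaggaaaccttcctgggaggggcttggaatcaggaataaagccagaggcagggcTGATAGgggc
HPGDS, chr4:94342877-94343086, minus strand: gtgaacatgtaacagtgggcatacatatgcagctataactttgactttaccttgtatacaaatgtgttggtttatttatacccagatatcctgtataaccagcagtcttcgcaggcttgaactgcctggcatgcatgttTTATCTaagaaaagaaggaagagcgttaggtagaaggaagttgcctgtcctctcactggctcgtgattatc
FCER1A, chr1:159302086-159302305, plus strand: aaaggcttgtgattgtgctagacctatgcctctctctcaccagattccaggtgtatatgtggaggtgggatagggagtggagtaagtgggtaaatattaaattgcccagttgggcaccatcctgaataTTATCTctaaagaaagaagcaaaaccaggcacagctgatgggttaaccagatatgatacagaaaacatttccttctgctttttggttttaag

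The words began 206 and 10 bases before the start in CLC, 111 and 45 in HPGDS (the second runs past the printed stretch), and 122 in FCER1A. MS4A2 held 1 word, 54 bases before its start, and CPA3 held words at 173 and 45. Retinoid half-sites, that is the words AGGTCA or else the letters GGGTCA, and likewise the words AGTTCA or else the letters GGTTCA, on both strands, were present in 4 of the 7 promoters (HDC, HPGDS, ENPP3 and CLC) and in 33.8% of all promoters. A match is a run of letters and not a measured binding site.

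Levels are given in CPM, counts scaled to a common library total by the trimmed mean of M values (TMM) over all 96 libraries. PRG2 and CLC reached high levels, and the other 8 genes stayed low in every group. Group means of PRG2 reached 276 CPM (HL60 DMSO day 2) and those of CLC 91.6 CPM (HL60 ATRA day 2), which per kilobase of exon were 150 and 144. TPSB2 reached 6.91 CPM (MOLM13 552A day 4), HPGDS 5.15 CPM (HL60 Combo day 4), MS4A2 4.44 CPM (OCIAML3 552A day 2) and FCER1A 1.29 CPM (MV411 552A day 2). ENPP3, HDC, TPSAB1 and CPA3 stayed below 1 CPM, with highest group means of 0.807, 0.79, 0.381 and 0.0915 CPM.

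**Figure D1:**
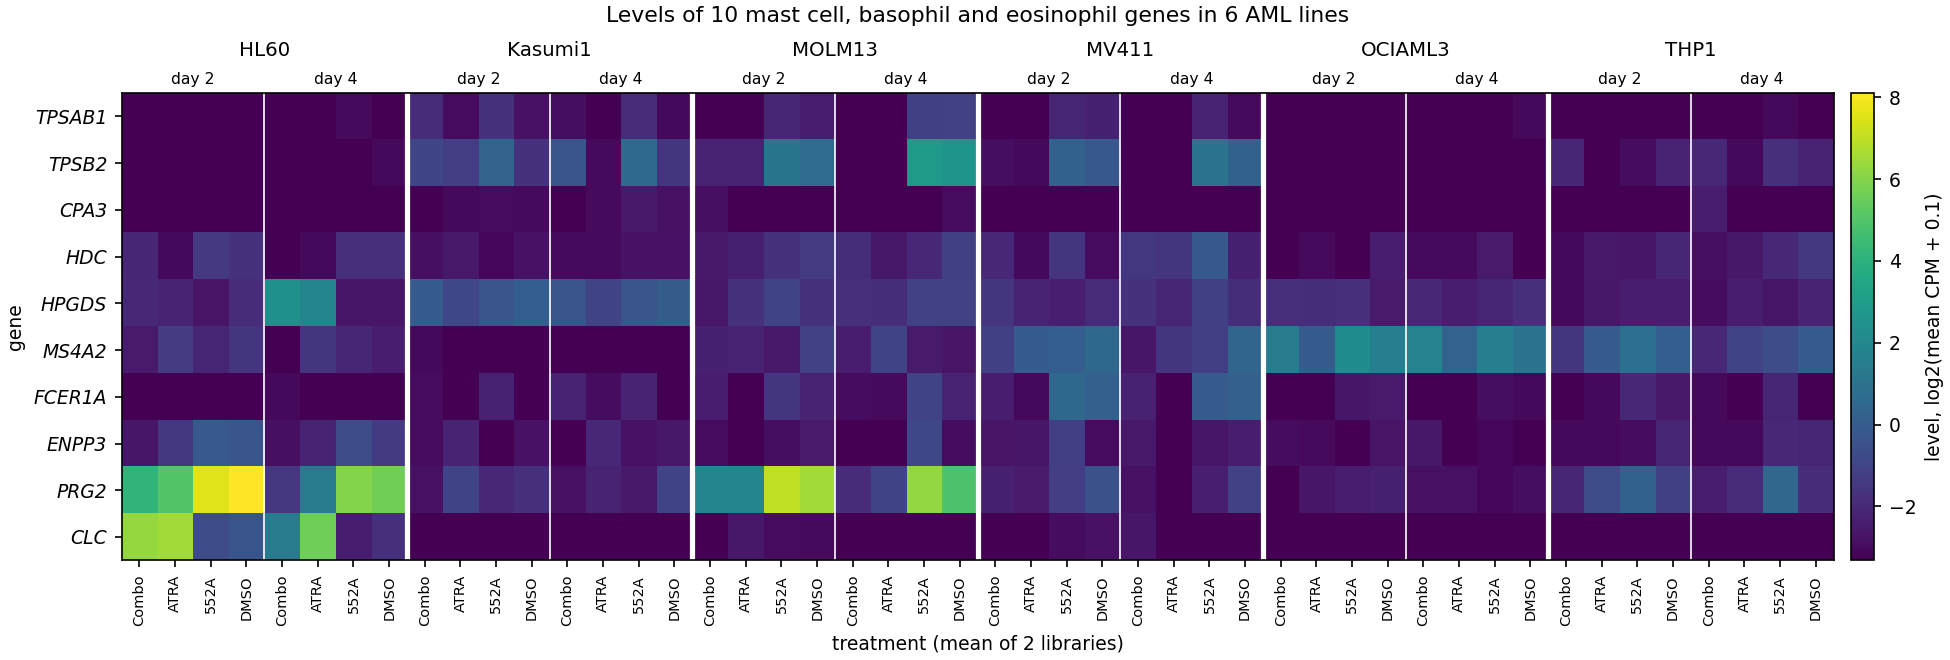
Mean level of each of the 10 genes (rows) in each of the 48 groups (columns, by line, day and treatment), as log2(mean CPM + 0.1) of 2 libraries. PRG2 is high in HL60 and MOLM13 with 552A or DMSO, CLC is high in HL60 with ATRA or Combo, and no line is high for all 10 genes.

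No line carried the whole set. In cells under DMSO, PRG2 led in HL60 and MOLM13, TPSB2 in MOLM13, FCER1A in MV411, MS4A2 in OCIAML3 and HPGDS in Kasumi1. GATA1, which drives the mast cell and eosinophil lineages, was at or below 0.235 CPM in every library, whereas GATA2 reached 92.4 CPM in MOLM13. EPX, the eosinophil peroxidase, reached 8.1 CPM in MOLM13 and at most 1.06 CPM in the other lines, and CMA1, the mast cell chymase, at most 0.521 CPM (OCIAML3). EPX and CMA1 were chosen for mention after their values were seen. KIT, the stem cell factor receptor of mast cells, ranged from 910 to 1950 CPM in Kasumi1. The cells are called by their lines here, and the 10 genes are a marker list, not a measure of how many cells of a lineage were present. In these bulk samples a change in the number of cells that express a gene and a change in RNA per cell cannot be told apart.

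Within-line tests used edgeR's quasi-likelihood test on the 16 libraries of a line, with Benjamini-Hochberg adjustment over all genes tested in that line and a call at adjusted p under 0.05. A gene was tested in a line where it passed a filter on low counts, which was met by 18 of the 60 pairs of gene and line: PRG2 in 5 lines, TPSB2 and MS4A2 in 3 each, HPGDS in 2, and TPSAB1, HDC, FCER1A, ENPP3 and CLC in 1 each. CPA3, with 15 counts over all 96 libraries, was tested in no line. Some pairs passed only through a group where the gene was high, so the counts of calls that follow describe the tested pairs and not all 60. The 3 drug groups of a day were compared with the same DMSO libraries.

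With ATRA or Combo more of the tested pairs fell than rose, and with 552A alone 1 pair passed the test. At day 4, Combo cells had 2 pairs called higher and 8 called lower than DMSO cells, and the background over all gene and line pairs was 12% higher and 9.94% lower. At day 4, ATRA cells had 2 pairs higher and 7 lower, against a background of 8.52% and 7.22%. At day 4, 552A cells had 1 pair higher and 0 lower, against a background of 2.7% and 1.01%. Without adjustment, 4 pairs were higher and 3 lower with 552A at p under 0.05, and DESeq2, with its own filter, called 2 higher and 0 lower. Without the filter on low counts 552A had 4 higher and 1 lower.

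At day 2, Combo cells had 1 pair higher and 8 lower than DMSO cells (background 10.6% and 8.16%). ATRA cells had 1 higher and 4 lower (6.45% and 4.85%), and the number lower was 6 with DESeq2, 7 without the filter on low counts and 8 with offsets for GC content and gene length. The 552A cells had no pair called in either direction (2.26% and 0.537%); 2 were higher and 0 lower at unadjusted p under 0.05, and DESeq2 called 0. The median log2 fold change of the 18 pairs at day 4 was -2.76 with Combo, -1.91 with ATRA and 0.126 with 552A, beside medians over all gene and line pairs of -0.00165, -0.00358 and -0.0132.

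Among the granule proteases, TPSB2 had no count with ATRA or Combo at day 4 in the 2 lines where it was highest. TPSB2, which encodes a beta-tryptase (chromosome 16, 1227272 to 1230184, minus strand), fell in MOLM13 and MV411 at day 4. In MOLM13 at day 4, TPSB2 had 0 counts in both Combo and both ATRA libraries, against 2.46 and 11.3 CPM in 552A cells and 2.89 and 8.99 CPM in DMSO cells. MV411 likewise had 0 counts of it at day 4 in both Combo and both ATRA libraries, against 1.09 and 2.74 CPM in 552A cells and 1.86 and 0.315 CPM in DMSO cells. The 552A and DMSO libraries overlapped each other in both lines, and every Combo and ATRA library lay below them.

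Because groups at 0 give no fold, the level that 3 counts over the group would give was used as a bound. TPSB2 in MOLM13 at day 4 was at least 65.8-fold lower in Combo cells than in DMSO cells (adjusted p = 0.00151) and at least 84-fold lower in ATRA cells (adjusted p = 0.00205). In MV411 at day 4 it was at least 14.1-fold lower in Combo cells (adjusted p = 0.0149) and at least 16.6-fold lower in ATRA cells (adjusted p = 0.0123). Bounds cover counting error only. The MV411 calls each rested on 3 libraries: adjusted p was 0.0745, 0.0544 and 0.0945 for Combo without Combo replicate 1, Combo replicate 2 or DMSO replicate 1, and 0.0709, 0.0815 and 0.0647 for ATRA without ATRA replicate 1, ATRA replicate 2 or DMSO replicate 1. Against 552A cells, TPSB2 in Combo cells at day 4 was at least 86.7-fold lower in MOLM13 (adjusted p = 0.00184) and at least 26.2-fold lower in MV411 (adjusted p = 0.00986, and 0.0576 without 552A replicate 2).

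At day 2, TPSB2 was at 0.205 and 0.0387 CPM in Combo, 0.089 and 0.14 CPM in ATRA, 1.37 and 2.79 CPM in 552A and 1.43 and 1.58 CPM in DMSO cells of MOLM13. The Combo and ATRA libraries lay below the 552A and DMSO libraries, and neither Combo nor ATRA passed the test against DMSO there (adjusted p = 0.0625 for Combo and 0.122 for ATRA). Other settings called both at about the same fold change, among them DESeq2 (0.00236 for Combo and 0.00331 for ATRA) and the replicate number as a block (0.0208 and 0.0359). The Combo cells of MV411 at day 2 held 2 counts of TPSB2 against 31 in DMSO cells, a 19.6-fold lower level (95% counting interval 4.99 to 169, adjusted p = 0.049). That call was lost in 10 of the 16 fits that left out 1 library (adjusted p up to 0.272) and with the replicate number as a block (0.0573). Against the 60 counts in 552A cells, the Combo level was 28.6-fold lower (95% counting interval 7.57 to 241, adjusted p = 0.0433), a call lost in 9 of the 16 fits that left out 1 library (adjusted p up to 0.244).

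In Kasumi1 the order differed. TPSB2 was at 0.125 and 1.23 CPM in Combo, 0 and 0.048 CPM in ATRA, 0.991 and 1.89 CPM in 552A, and 0.157 and 0.297 CPM in DMSO cells at day 4. Both 552A libraries lay above both DMSO libraries, and the log2 fold change of 2.64 did not pass the test (adjusted p = 0.128). At day 2 it was 0.533 and 1.79 CPM with 552A against 0.143 and 0.276 CPM with DMSO (log2 fold change 2.42, adjusted p = 0.228). Several other settings called these differences, with adjusted p from 0.000415 to 0.0352 at day 4 and from 0.0032 to 0.043 at day 2.

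TPSAB1, an alpha- or beta-tryptase gene (chromosome 16, 1240696 to 1242554, plus strand), was tested in MOLM13 and followed TPSB2 at a lower level. At day 4 it had 0 counts in both Combo and both ATRA libraries, 0 and 0.707 CPM in 552A cells, and 0.107 and 0.655 CPM in DMSO cells. No comparison passed the test (adjusted p = 0.186 for Combo and 0.165 for ATRA), while without the filter on low counts both were called (0.0245 and 0.0151), as they were with the replicate block and GC and length offsets together (0.0399 and 0.0337). With the counts of TPSAB1, TPSB2 and TPSD1 summed, the 8 TPSB2 calls kept their direction and side of the threshold. TPSAB1 held 94 counts over all libraries and TPSB2 1209, so TPSAB1 added little to this sum. Reads that were counted for no gene are not in the sum. CPA3, the mast cell carboxypeptidase (chromosome 3, 148865256 to 148897196, plus strand), had no count in 39 of the 48 groups, and its highest library held 3 counts (THP1 Combo day 4 replicate 2, 0.183 CPM).

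**Figure D2:**
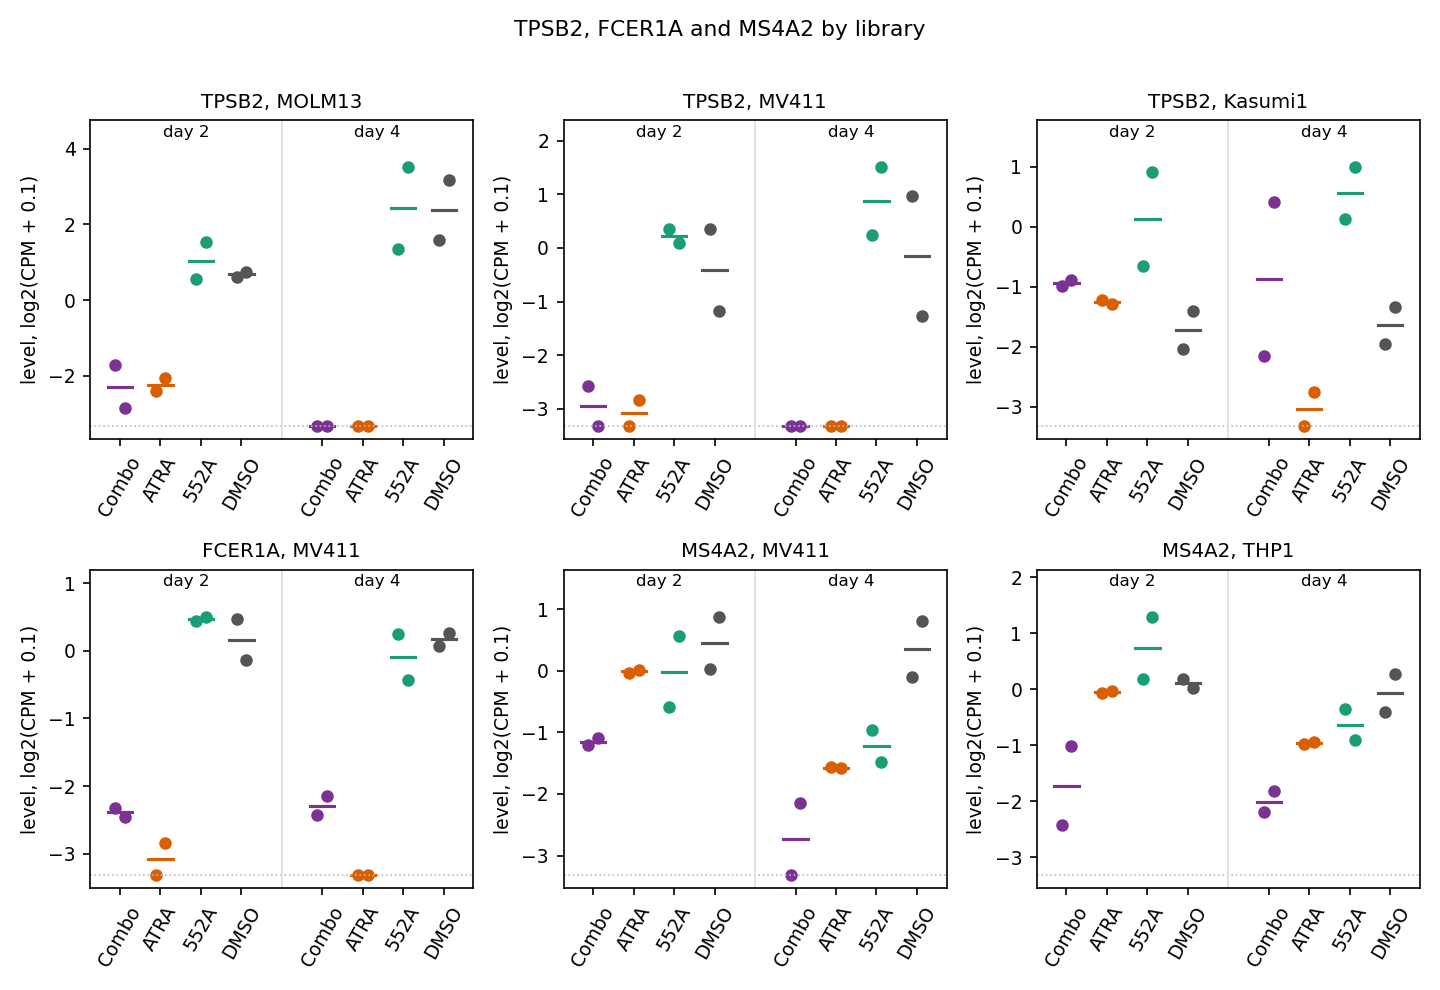
TPSB2 in MOLM13, MV411 and Kasumi1, FCER1A in MV411, and MS4A2 in MV411 and THP1, as log2(CPM + 0.1) per library (points) with the mean of the 2 libraries (bars); the dotted line marks a count of 0. In MOLM13 and MV411 at day 4 the Combo and ATRA libraries of TPSB2 sit on the line, and FCER1A in MV411 at day 4 is at 0 with ATRA and at 0.0853 and 0.125 CPM with Combo.

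Among the enzymes that make mediators, HPGDS rose in HL60, and HDC passed no test within MV411, the line in which it was tested. HPGDS encodes the haematopoietic prostaglandin D synthase (chromosome 4, 94298535 to 94342876, minus strand), which makes the main prostaglandin of mast cells. In HL60 at day 4, HPGDS was at 4.1 and 6.2 CPM in Combo cells, 2.78 and 4.38 CPM in ATRA cells, 0 and 0.124 CPM in 552A cells and 0.0366 and 0.0895 CPM in DMSO cells. All 4 libraries that received ATRA lay far above the other 4.

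Over the 2 libraries, 253 counts in Combo cells and 162 in ATRA cells stood against 3 in DMSO cells. The ratio to DMSO was 82.9 for Combo (95% counting interval 28 to 405, adjusted p = 6.97e-05) and 57 for ATRA (19.2 to 279, adjusted p = 0.000155). At day 2 no such difference was seen: HPGDS was at 0.239 and 0.0455 CPM in Combo, 0.164 and 0.0816 CPM in ATRA, 0.0622 and 0.0387 CPM in 552A and 0.162 and 0.187 CPM in DMSO cells. The day 4 effect exceeded the day 2 effect by 6.45 ± 1.20 (SE) on the log2 scale for Combo (adjusted p = 0.0125) and by 6.15 ± 1.21 for ATRA (adjusted p = 0.045). The Combo call was lost without DMSO day 2 replicate 1 (adjusted p = 0.0582), DMSO day 2 replicate 2 (0.0671) or DMSO day 4 replicate 1 (0.0591), and the ATRA call in 12 of the 16 fits that left out 1 library (up to 0.212). Over all tested pairs, the Combo effect was higher at day 4 than at day 2 in 1 and lower in 2 (background 0.457% and 0.421%), and the ATRA effect higher in 1 and lower in 0 (0.185% and 0.171%). The 552A effect differed in 0 pairs (0% and 0%), also without adjustment.

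In Kasumi1, which had the highest DMSO level of HPGDS, it was at 0.876 and 0.48 CPM with Combo, 0.583 and 0.24 CPM with ATRA, 0.519 and 0.92 CPM with 552A and 0.905 and 0.99 CPM with DMSO at day 4. The Combo and ATRA libraries lay below both DMSO libraries, 552A overlapped DMSO, and no comparison with DMSO passed the test. HDC, the histidine decarboxylase that makes histamine (chromosome 15, 50241947 to 50266026, minus strand), was tested in MV411. At day 4 it was at 0.341 and 0.188 CPM in Combo, 0.285 and 0.195 CPM in ATRA, 0.467 and 1.11 CPM in 552A and 0.0414 and 0.157 CPM in DMSO cells. Both DMSO libraries were the lowest, and the log2 fold change of 2.94 with 552A did not pass the test (adjusted p = 0.0803), though it was called with GC and length offsets (0.0322, or 0.0272 with the replicate block as well) and without the filter on low counts (0.00631). In HL60, where HDC did not pass the filter, DESeq2 called it lower with Combo at day 4 (0.0463).

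Of the IgE receptor, the alpha chain FCER1A and the beta chain MS4A2 fell in MV411. FCER1A encodes the alpha chain that binds IgE (chromosome 1, 159289714 to 159308224, plus strand). In MV411 at day 4, FCER1A was at 0.0853 and 0.125 CPM in Combo cells, 0 in both libraries of ATRA cells, 1.09 and 0.642 CPM in 552A cells and 0.953 and 1.1 CPM in DMSO cells. Day 2 values were 0.0999 and 0.082 CPM in Combo, 0 and 0.0396 CPM in ATRA, 1.26 and 1.32 CPM in 552A and 1.28 and 0.808 CPM in DMSO cells. The Combo and ATRA libraries lay below all 552A and DMSO libraries at both days.

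FCER1A differed between Combo and DMSO cells by -3.23 ± 0.567 (SE) on the log2 scale at day 4 (adjusted p = 0.0013) and by -3.49 ± 0.538 at day 2 (adjusted p = 0.001). ATRA cells at day 4 were at least 16-fold lower than DMSO cells (adjusted p = 0.000122). At day 2, 1 count in ATRA cells stood against 44 in DMSO cells, a 51.4-fold lower level (95% counting interval 8.76 to 2080, adjusted p = 0.000514). These 4 calls held in all fits that left out 1 library.

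MS4A2 encodes the beta chain that amplifies signals of the receptor (chromosome 11, 60088261 to 60098466, plus strand). In MV411 at day 4, MS4A2 was at 0 and 0.125 CPM in Combo, 0.237 and 0.234 CPM in ATRA, 0.415 and 0.257 CPM in 552A and 0.829 and 1.65 CPM in DMSO cells. Day 2 values were 0.333 and 0.369 CPM in Combo, 0.878 and 0.911 CPM in ATRA, 0.563 and 1.38 CPM in 552A and 0.923 and 1.74 CPM in DMSO cells. At day 4 both DMSO libraries were the highest, and at day 2 they overlapped with 552A and not with Combo. The day 4 log2 fold change of -1.89 with 552A did not pass the test (adjusted p = 0.103). It was called lower without the filter on low counts (0.0151) and with the replicate block and GC and length offsets together (0.0313).

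At day 4 in that line, 2 counts of MS4A2 in Combo cells stood against 62 in DMSO cells, a 24.7-fold lower level (95% counting interval 6.55 to 208, adjusted p = 0.00198). ATRA cells at day 4 differed from DMSO cells by -2.33 ± 0.627 on the log2 scale (adjusted p = 0.0158), and Combo cells at day 2 by -2.0 ± 0.578 (adjusted p = 0.0313). The ATRA call was lost without ATRA replicate 1 (adjusted p = 0.09), ATRA replicate 2 (0.108) or DMSO replicate 2 (0.129). The day 2 call was lost without Combo replicate 1 (0.146), Combo replicate 2 (0.126) or DMSO replicate 2 (0.226).

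In THP1 the Combo cells were lowest for MS4A2. At day 4 it was at 0.119 and 0.183 CPM in Combo, 0.406 and 0.418 CPM in ATRA, 0.678 and 0.433 CPM in 552A and 0.652 and 1.1 CPM in DMSO cells, a difference of -2.60 ± 0.655 between Combo and DMSO cells (adjusted p = 0.00856). At day 2 it was at 0.0852 and 0.396 CPM in Combo, 0.857 and 0.883 CPM in ATRA, 1.03 and 2.35 CPM in 552A and 1.04 and 0.916 CPM in DMSO cells, a difference of -2.03 ± 0.558 (adjusted p = 0.0168). The day 4 call was lost without Combo replicate 1 (adjusted p = 0.0686) or DMSO replicate 2 (0.0679), and the day 2 call without Combo replicate 1 (0.111), DMSO replicate 1 (0.0881) or DMSO replicate 2 (0.0548).

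OCIAML3 held the highest levels of MS4A2, and none of its comparisons passed the test as fitted here. At day 2 it was at 2.23 and 3.01 CPM in Combo, 1.22 and 0.607 CPM in ATRA, 2.28 and 6.6 CPM in 552A and 2.66 and 3.18 CPM in DMSO cells. Both ATRA libraries were the lowest, with a log2 fold change of -1.56 and an adjusted p of 0.0749. That fold change was called in 5 other settings, with adjusted p from 0.0026 without the filter on low counts to 0.0302 with DESeq2, and at day 4 Combo against ATRA was called in 2 (0.0148 and 0.0424). The 6.6 CPM came from replicate 2 of 552A, the library with the steepest dependence on GC content.

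ENPP3, a surface phosphodiesterase used as a basophil activation marker (CD203c; chromosome 6, 131628442 to 131747418, plus strand), fell with Combo in HL60, the line where it was tested. At day 2, ENPP3 was at 0.0798 and 0.0455 CPM in Combo, 0.164 and 0.367 CPM in ATRA, 0.684 and 0.929 CPM in 552A and 0.648 and 0.749 CPM in DMSO cells. At day 4 it was at 0.0347 and 0.0459 CPM in Combo, 0.0723 and 0.154 CPM in ATRA, 0.61 and 0.412 CPM in 552A and 0.293 and 0.269 CPM in DMSO cells. The Combo libraries were the lowest of all at each day, with ATRA next above them.

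The 3 counts of ENPP3 in Combo cells at day 2 stood against 32 in DMSO cells, a 10.9-fold lower level (95% counting interval 3.41 to 55.6, adjusted p = 0.00119). At day 4, 2 counts stood against 14, a 7.12-fold lower level (1.64 to 64.6, adjusted p = 0.0126). The day 4 call was lost without Combo replicate 1 (adjusted p = 0.0994), Combo replicate 2 (0.0707) or DMSO replicate 1 (0.0583), and with DESeq2 (0.0785). ATRA cells did not pass the test (adjusted p = 0.0577 at day 2 and 0.105 at day 4), and with GC and length offsets they were called lower (0.0189 and 0.0452).

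The 2 eosinophil proteins moved in opposite directions in HL60. CLC encodes galectin-10 (chromosome 19, 39731250 to 39738028, minus strand). At day 2 in HL60, CLC was at 79.9 and 77.3 CPM in Combo cells, 99.3 and 84 CPM in ATRA cells, 0.56 and 0.503 CPM in 552A cells and 0.526 and 0.842 CPM in DMSO cells. At day 4 it was at 2.47 and 2.57 CPM in Combo, 36.5 and 59.3 CPM in ATRA, 0.0938 and 0.0825 CPM in 552A and 0.256 and 0.134 CPM in DMSO cells. At day 2 the Combo and ATRA libraries lay close together and far above the rest, while at day 4 the Combo libraries lay between the ATRA libraries and those without ATRA.

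CLC in Combo cells differed from DMSO cells by 6.83 ± 0.353 (SE) on the log2 scale at day 2 (adjusted p = 9.62e-08) and by 3.54 ± 0.380 at day 4 (adjusted p = 2.45e-05). In ATRA cells the difference was 7.06 ± 0.356 at day 2 (adjusted p = 1.52e-07) and 7.77 ± 0.389 at day 4 (adjusted p = 1.06e-07). At day 4 Combo cells were lower than ATRA cells by -4.23 ± 0.304 (adjusted p = 7.17e-05). The Combo effect itself was smaller at day 4 than at day 2, by -3.29 ± 0.559 (adjusted p = 0.00796, and 0.187 without DMSO day 4 replicate 1). The 5 Combo and ATRA calls held in all 16 fits that left out 1 library. Elsewhere CLC was near absent, with no count in 34 of the 48 groups.

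**Figure D3:**
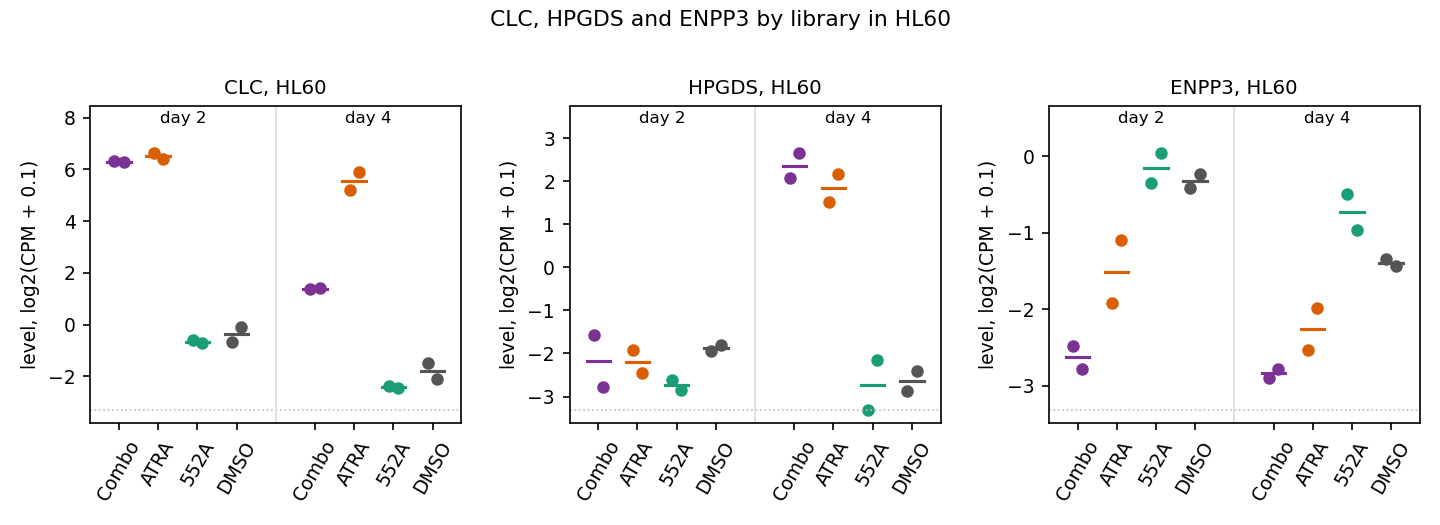
CLC, HPGDS and ENPP3 in HL60, as log2(CPM + 0.1) per library (points) with the mean of the 2 libraries (bars), by treatment and day; the dotted line marks a count of 0. CLC is high with Combo and ATRA at day 2 (77.3 to 99.3 CPM) and lower with Combo (2.47 and 2.57 CPM) than with ATRA (36.5 and 59.3 CPM) at day 4, whereas HPGDS is high at day 4 only.

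PRG2 encodes major basic protein of the eosinophil granule (chromosome 11, 57386794 to 57390657, minus strand). The row shares 791 of its 1838 exonic bases with AP000781.2, which held 225 counts in all. In HL60 at day 4, PRG2 was at 0.313 and 0.184 CPM in Combo cells, 1.99 and 2.83 CPM in ATRA cells, 69.6 and 55.1 CPM in 552A cells and 64.1 and 35 CPM in DMSO cells. In the day 2 libraries it was at 11.7 and 23.7 CPM in Combo, 18.3 and 48.2 CPM in ATRA, 149 and 223 CPM in 552A and 221 and 330 CPM in DMSO cells. The libraries with ATRA lay below those without it at both days, and at day 4 the Combo libraries also lay below the ATRA libraries.

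PRG2 in HL60 differed between Combo and DMSO cells by -3.98 ± 0.502 (SE) on the log2 scale at day 2 (adjusted p = 5.93e-05) and by -7.66 ± 0.666 at day 4 (adjusted p = 5.14e-06), and this effect grew by -3.68 ± 0.789 between the days (adjusted p = 0.0229). The growth was not called without Combo day 2 replicate 2 (0.0643), Combo day 4 replicate 1 (0.0927) or 2 (0.111), DMSO day 2 replicate 1 (0.0876) or 2 (0.0553), or DMSO day 4 replicate 1 (0.0845). ATRA cells differed from DMSO cells by -3.09 ± 0.481 at day 2 (adjusted p = 0.000503) and -4.47 ± 0.532 at day 4 (adjusted p = 6.06e-05). Combo cells at day 4 were lower than ATRA cells by -3.19 ± 0.670 (adjusted p = 0.039). This last call was lost in 8 of the 16 fits that left out 1 library, with adjusted p of 0.0506 without 552A day 2 replicate 2, 0.0628 and 0.0627 without 552A day 4 replicates 1 and 2, 0.0644 and 0.21 without ATRA day 4 replicates 1 and 2, 0.256 and 0.338 without Combo day 4 replicates 1 and 2, and 0.0512 without DMSO day 2 replicate 1.

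PRG2 also fell in MOLM13. It was at 0.163 and 0.191 CPM in Combo, 0.567 and 0.241 CPM in ATRA, 73.2 and 77.6 CPM in 552A and 25.9 and 34.2 CPM in DMSO cells at day 4. In the day 2 libraries it was at 3.39 and 3.91 CPM in Combo, 4.1 and 3.29 CPM in ATRA, 161 and 93.4 CPM in 552A and 116 and 65.8 CPM in DMSO cells. At day 4 both 552A libraries lay above both DMSO libraries, with a log2 fold change of 1.27 that did not pass the test (adjusted p = 0.0773), while at day 2 they overlapped. At about that fold change the day 4 difference was called with DESeq2 (0.012), with GC and length offsets (0.0223, or 0.0104 with the replicate block as well) and without the filter on low counts (7.08e-05).

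Combo cells of MOLM13 differed from DMSO cells in PRG2 by -7.39 ± 0.508 at day 4 (adjusted p = 9.47e-07) and by -4.66 ± 0.371 at day 2 (adjusted p = 4.72e-06). ATRA cells differed by -6.24 ± 0.443 at day 4 (adjusted p = 2.24e-06) and by -4.65 ± 0.370 at day 2 (adjusted p = 1.04e-05). Combo cells were also lower than 552A cells, by -8.66 ± 0.513 at day 4 (adjusted p = 4.14e-07). DMSO cells themselves were lower at day 4 than at day 2, by -1.59 ± 0.321 (adjusted p = 0.0251), the 1 pair of the 18 called between the days under DMSO (background 0.0871% higher and 0.339% lower). It was lost without Combo day 4 replicate 2 (adjusted p = 0.0528), DMSO day 2 replicate 1 (0.306), DMSO day 4 replicate 1 (0.267) or DMSO day 4 replicate 2 (0.17).

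MV411 and THP1 held PRG2 at low levels. In MV411 at day 4 it was at 0.0853 and 0 CPM in Combo, 0 in both libraries of ATRA, 0.104 and 0.0856 CPM in 552A and 0.29 and 0.472 CPM in DMSO cells. The day 2 levels were 0.0333 and 0.164 CPM in Combo, 0.12 and 0.0396 CPM in ATRA, 0.173 and 0.47 CPM in 552A and 0.513 and 0.723 CPM in DMSO cells. The DMSO libraries were the highest at each day.

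PRG2 in MV411 at day 4 was at least 5.97-fold lower in ATRA cells than in DMSO cells (adjusted p = 0.00869, and 0.0681 without ATRA replicate 2), and Combo cells did not pass the test (adjusted p = 0.0544, but 0.0366 with GC and length offsets, 0.0338 with the replicate block as well, and 0.0495 without the filter on low counts). At day 2 Combo cells differed by -2.75 ± 0.766 (adjusted p = 0.0291), lost without Combo replicate 1 (0.188), DMSO replicate 1 (0.069) or DMSO replicate 2 (0.156). ATRA cells at day 2 differed by -2.93 ± 0.798 (adjusted p = 0.0498), lost in 14 of the 16 fits that left out 1 library (adjusted p up to 0.319), with the replicate block (0.0508) and with DESeq2 (0.124).

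In THP1, PRG2 was the 1 pair called with 552A alone. At day 4 it was at 0.119 and 0.061 CPM in Combo, 0.0451 and 0.266 CPM in ATRA, 1.17 and 1.37 CPM in 552A and 0.351 and 0 CPM in DMSO cells. At day 2 it was at 0.0852 and 0.18 CPM in Combo, 0.468 and 0.604 CPM in ATRA, 1.09 and 1.04 CPM in 552A and 0.347 and 0.344 CPM in DMSO cells. The 552A libraries were the highest at both days. At day 4, 552A cells differed from DMSO cells by 2.67 ± 0.708 on the log2 scale (adjusted p = 0.0429), a call lost in 10 of the 16 fits that left out 1 library (adjusted p up to 0.202). Combo cells were lower than 552A cells by -3.66 ± 0.778 at day 4 (adjusted p = 0.00446) and by -2.94 ± 0.731 at day 2 (adjusted p = 0.0124, lost without Combo replicate 1 at 0.0938 or Combo replicate 2 at 0.0541).

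**Figure D4:**
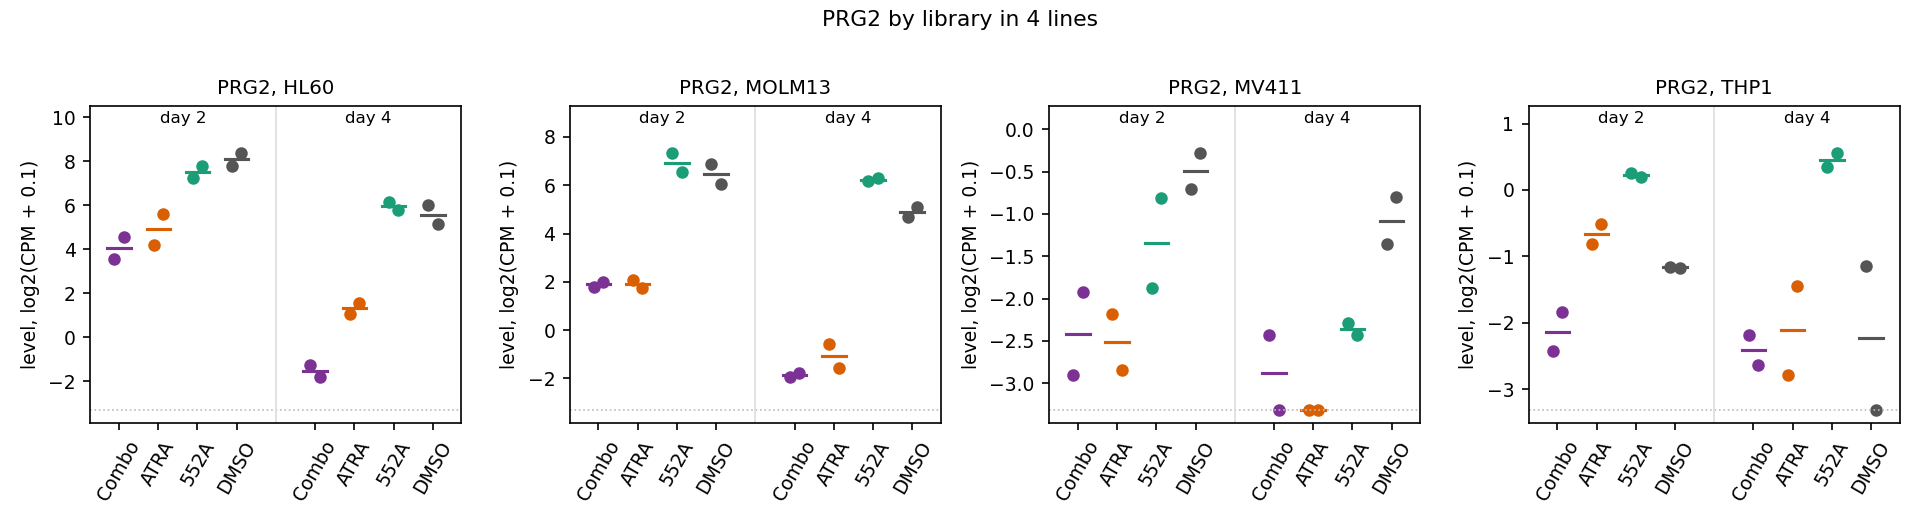
PRG2 in HL60, MOLM13, MV411 and THP1, as log2(CPM + 0.1) per library (points) with the mean of the 2 libraries (bars), by treatment and day; the dotted line marks a count of 0. The Combo and ATRA libraries lie below the 552A and DMSO libraries in HL60 and MOLM13, and in THP1 the 552A libraries are the highest (1.17 and 1.37 CPM at day 4).

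The combination was also set against each single agent over all tested pairs. At day 4, Combo cells had 2 pairs higher and 7 lower than 552A cells (background 7.73% and 7.01%), and at day 2, 1 higher and 7 lower (6.61% and 6.29%). Against ATRA cells at day 4 there were 0 higher and 2 lower (4.84% and 3.58%), CLC and PRG2 in HL60. Against ATRA cells at day 2 there were none (3.25% and 1.9%), with 1 higher and 5 lower at unadjusted p under 0.05 and 0 by DESeq2. No pair passed the test of an effect beyond the sum of both agents on the log2 scale, at day 4 (background 0.296% higher and 0.662% lower; 2 higher and 4 lower unadjusted) or day 2 (0.0784% and 0.188%; 0 higher and 3 lower unadjusted).

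Across the 6 lines, with the 2 libraries of a group summed and the line as a block, 4 of the 10 genes were tested: PRG2, TPSB2, MS4A2 and HPGDS. PRG2 was lower in Combo than in DMSO cells at day 4, by -5.38 ± 1.34 (SE) on the log2 scale (adjusted p = 0.00825; 11.7% of all genes called lower), and at day 2 by -3.60 ± 0.682 (adjusted p = 0.00149; 13.4%). Its summed counts at day 4 were 13, 2, 6, 2, 2 and 4 in Combo cells of HL60, Kasumi1, MOLM13, MV411, OCIAML3 and THP1, against 2534, 17, 1058, 19, 2 and 7 in DMSO cells. The day 4 call was lost without HL60 (adjusted p = 0.0636). PRG2 with ATRA did not pass the test at day 4 (-3.61 ± 1.10, adjusted p = 0.0501) or day 2 (-2.0 ± 0.661, adjusted p = 0.0562); of all genes, 4.66% were called higher and 3.26% lower with ATRA at day 4, and 5.73% and 5.18% at day 2. The day 4 difference was called with DESeq2 (adjusted p = 0.0387), without the filter on low counts (0.0424), from replicate 1 alone (0.00704) and without Kasumi1 (0.0353), over a range of 0.00704 to 0.194 for all settings, and at day 2 without Kasumi1 (0.0153).

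TPSB2 was called lower with ATRA at day 4 (adjusted p = 0.0216). Its summed counts were 0, 1, 0, 0, 0 and 1 in ATRA cells of the 6 lines in the same order, against 1, 10, 205, 53, 0 and 4 in DMSO cells. The call was lost without HL60 (adjusted p = 0.0618) and with DESeq2 (0.0863). Only 3 of the fits that left out 1 line tested TPSB2, and the call held in 2 of them. Of the other settings 4 tested it, and the call held in 3. The rest gave no test of TPSB2. With 552A none of the 4 genes passed at either day, with 0 at unadjusted p under 0.05 and 0 by DESeq2 (background 0.345% higher and 0.0138% lower at day 4, and 1.86% and 0.741% at day 2). The size of the response at day 4 was not the same in each line (edgeR's test of the interaction of line and drug) for 6 of 9 tested genes with Combo (33.6% of all genes), 2 of 9 with ATRA (31.4%) and 1 of 9 with 552A (5.69%). That test could not decide for genes with almost no counts in most lines. With ATRA its F was 1.79e-08 for CLC, which rose in HL60 and was near absent elsewhere, and 1.65e-08 for TPSAB1. No gene's drug effect differed between the days across lines: 1 of 24 tests had an unadjusted p under 0.05, and 0% of all genes were called.

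Under DMSO, 7 of the 10 genes could be tested between lines, and all 7 differed, as did 92.6% of all genes. Some of these genes, such as CLC and FCER1A, passed the filter on low counts only through a line where they were high. The lines were also ordered by the same levels that were then tested between neighbours. These tests therefore describe the levels and give no separate support for a difference. PRG2 averaged 163 CPM in HL60 and 60.4 CPM in MOLM13 (adjusted p = 0.000154) over 4 DMSO libraries each, far above MV411 at 0.499 CPM. Below these, MV411, Kasumi1 (0.287 CPM) and THP1 (0.261 CPM) did not differ between neighbours, and OCIAML3 was lowest at 0.0672 CPM (adjusted p = 0.0359 against THP1). TPSB2 averaged 3.72 CPM in MOLM13, 0.925 CPM in MV411 (adjusted p = 0.00633) and 0.218 CPM in Kasumi1 (adjusted p = 0.0148), and lower neighbours did not differ.

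MS4A2 averaged 2.44 CPM in OCIAML3 and 1.29 CPM in MV411 (adjusted p = 0.0488), followed by THP1 at 0.928 CPM, which did not differ from MV411 (adjusted p = 0.371). MOLM13 (0.214 CPM) was below THP1 (adjusted p = 0.00142) and not different from HL60 (0.166 CPM), and Kasumi1 had 0 counts. FCER1A averaged 1.04 CPM in MV411 and 0.114 CPM in MOLM13 (adjusted p = 8.35e-05), and HPGDS 0.961 CPM in Kasumi1 and 0.287 CPM in MOLM13 (adjusted p = 0.00341). ENPP3 averaged 0.489 CPM in HL60 and 0.127 CPM in THP1 (adjusted p = 0.0219), and CLC 0.44 CPM in HL60 and 0.0234 CPM in MV411 (adjusted p = 0.000542). These libraries pool both days, and the lower neighbours of these 4 genes did not differ.

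Of 25 other genes of mast cells, basophils and eosinophils, 20 were tested in at least 1 line, and they moved in both directions. At day 4, 31 of 90 tested pairs of gene and line were higher and 24 lower in Combo cells than in DMSO cells (median log2 fold change 0.127), and 31 were higher and 12 lower in ATRA cells (median 0.313). With 552A, 8 were higher and 11 lower (median -0.166). Over all gene and line pairs, 12% were higher and 9.94% lower with Combo, 8.52% and 7.22% with ATRA, and 2.7% and 1.01% with 552A. CCR3, the eotaxin receptor of eosinophils and basophils, was higher with Combo in 5 lines and with ATRA in 5 lines. In HL60 at day 4 it was at 47.4 and 50.9 CPM in Combo, 129 and 181 CPM in ATRA, 0.141 and 0.247 CPM in 552A and 0.366 and 0.0895 CPM in DMSO cells.

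KIT was higher with Combo and with ATRA in HL60, MOLM13 and MV411. In Kasumi1 and THP1 it was called lower at day 4 with Combo and with 552A. In MV411 at day 4 it was at 48.3 and 83.2 CPM in Combo, 25.9 and 26.5 CPM in ATRA, 8.47 and 8.39 CPM in 552A and 2.2 and 1.97 CPM in DMSO cells, a log2 fold change of 5.01 ± 0.440 with Combo (adjusted p = 5.17e-06) and 3.69 ± 0.419 with ATRA (adjusted p = 4.27e-05). KIT rose in the MV411 cells in which TPSB2, FCER1A and MS4A2 fell. FCER1G, the signalling chain of the IgE receptor that other Fc receptors also use, was higher with Combo and with ATRA in 4 lines (HL60, MOLM13, MV411 and THP1), with a log2 fold change of 1.80 ± 0.196 with Combo in MV411 (adjusted p = 2.86e-05).

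RNASE2, the eosinophil-derived neurotoxin that neutrophils and monocytes also make, was lower with Combo in 5 lines and with ATRA in HL60 and MV411. It was also lower with 552A in Kasumi1 and MV411. In HL60 at day 4 it was at 0.278 and 0.459 CPM in Combo, 5.28 and 17.5 CPM in ATRA, 32.5 and 29.2 CPM in 552A and 33.5 and 35.3 CPM in DMSO cells, so that, as for PRG2 there, the Combo libraries lay below the ATRA libraries and these below the rest. CTSG, the protease cathepsin G of mast cells and neutrophils, was lower with Combo in 6 lines, with ATRA in 4 and with 552A in 3. SRGN, the granule proteoglycan serglycin, was higher with Combo and with ATRA in 5 lines each.

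Of 13 transcription factors of these lineages, 12 were tested, and they moved in both directions. At day 4, 11 of 64 tested pairs were higher and 14 lower in Combo cells. With ATRA 8 were higher and 14 lower, and with 552A 6 were higher and 0 lower. The shares over all gene and line pairs were 12% higher and 9.94% lower with Combo. They were 8.52% and 7.22% with ATRA and 2.7% and 1.01% with 552A. MITF was higher with Combo in HL60, MV411, OCIAML3 and THP1 and with 552A in Kasumi1, MV411 and THP1. With ATRA, MITF was higher in HL60 and THP1 and lower in MOLM13 and OCIAML3. CEBPA was lower with Combo in HL60, MOLM13 and MV411, and STAT5B in HL60 and MV411. GFI1 was lower with ATRA in HL60, OCIAML3 and THP1. It was higher with Combo in Kasumi1 and MV411 and with 552A in HL60 and Kasumi1. ID2 was higher with Combo and with ATRA in HL60 and THP1. GATA2 was lower with Combo at day 4 in HL60, MOLM13, MV411 and THP1 and with ATRA in HL60, MOLM13, MV411 and OCIAML3. In MOLM13 at day 4 it was at 1.85 and 0.826 CPM in Combo, 1.53 and 2.27 CPM in ATRA, 32.9 and 92.4 CPM in 552A and 33 and 54.8 CPM in DMSO cells. Combo and DMSO cells of MOLM13 differed by -5.04 ± 0.545 (adjusted p = 3.48e-05), those of HL60 by -5.61 ± 0.504 (adjusted p = 6.26e-06) and those of MV411 by -2.74 ± 0.574 (adjusted p = 0.00342). Over the 48 groups, after the mean of the line was subtracted from log2(CPM + 1), the Pearson correlation with GATA2 was 0.778 for PRG2, 0.633 for TPSB2, 0.442 for FCER1A, 0.232 for MS4A2, -0.276 for HPGDS and -0.559 for CLC. These values describe 48 group means that share libraries and their depth with both genes. With 1 added to the CPM, lines where a gene stayed far below 1 CPM add little to them. GATA2 was picked for this correlation, and values for the other factors are not given here. Group means of CLC reached at most 0.0668 CPM outside HL60. Those of PRG2 reached at most 0.618 CPM in MV411, 0.397 CPM in Kasumi1 and 0.099 CPM in OCIAML3.

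**Figure D5:**
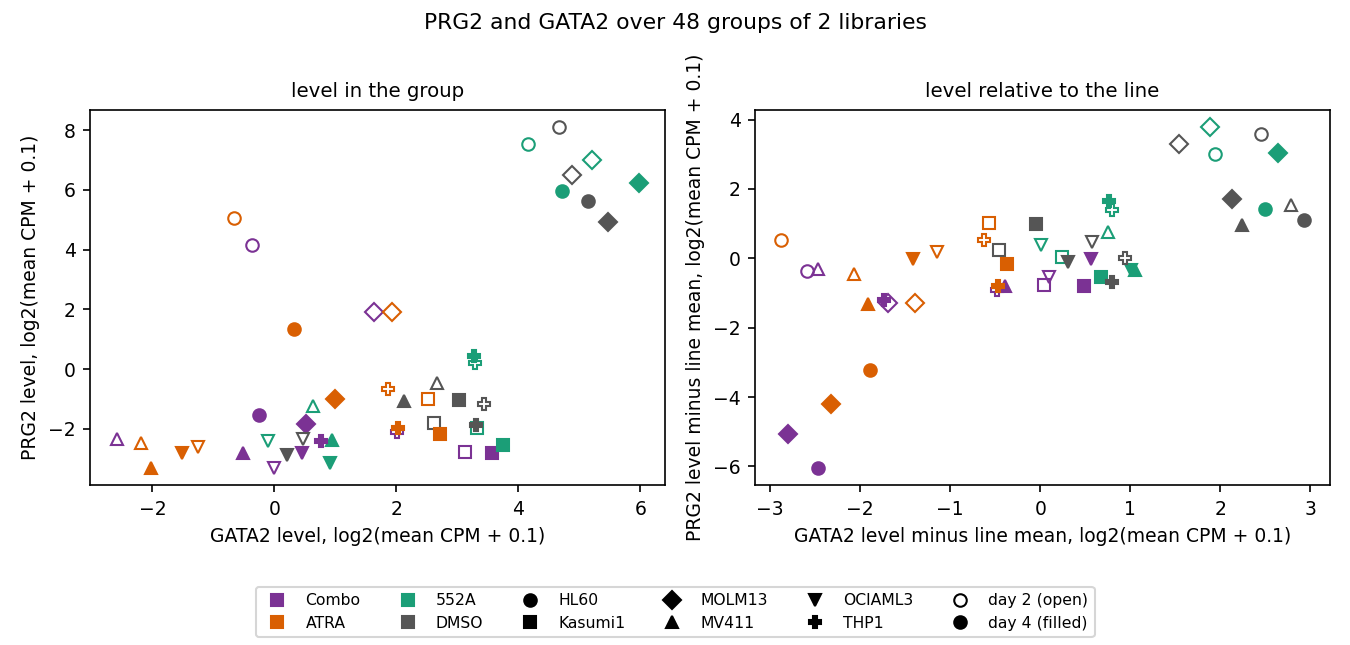
PRG2 (vertical) against GATA2 (horizontal) in the 48 groups, as log2(mean CPM + 0.1) on the left and the same minus the mean of the line on the right; colours give the treatment, symbols the line, open symbols day 2 and filled symbols day 4. The Combo and ATRA groups of HL60 and MOLM13 at day 4 lie lowest for PRG2 on the right, and the Combo and ATRA groups of HL60 lie low for GATA2 at both days.

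Markers of other cell types moved in the same libraries. At day 4, 21 of 39 tested pairs of monocyte markers were higher and 3 lower in Combo cells, 13 higher and 4 lower in ATRA cells, and 20 higher and 0 lower in 552A cells. Over all gene and line pairs the shares higher and lower were 12% and 9.94% with Combo, 8.52% and 7.22% with ATRA, and 2.7% and 1.01% with 552A. These shares also stand beside the marker lists that follow. The summed level of the 8 monocyte genes at day 4 in MV411 ranged from 718 to 855 CPM in Combo, 556 to 557 in ATRA, 1480 to 1620 in 552A and 504 to 518 CPM in DMSO cells. In HL60 it was 38.8 to 41.1, 9.63 to 17.8, 138 to 163 and 4.02 to 4.21 CPM in the same order.

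The summed level of 8 neutrophil granule genes in HL60 at day 4 was 12.8 to 16.4 CPM in Combo, 184 to 225 in ATRA, 2840 to 2910 in 552A and 1780 to 1900 CPM in DMSO cells. Among 27 tested pairs of these genes, 3 were higher and 11 lower in Combo cells, and 2 higher and 3 lower in ATRA cells. Of 17 tested pairs of megakaryocyte and erythroid genes, 0 were higher and 7 lower in Combo cells and 0 higher and 4 lower in ATRA cells. Of 20 tested pairs of general leukocyte and myeloid genes, 6 were higher and 1 lower in Combo cells. The part of these changes in the results for the 10 genes was not tested.

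The genes with the pattern most like each member were taken from 18327 genes by Pearson correlation of log2(CPM + 1) over the 48 group means after subtraction of the line mean. Lines where a member stayed far below 1 CPM add little to these values, so those for CLC rest mainly on HL60. For CLC they were CYP4F3 (0.985), AC123769.1 (0.976) and AC138123.1 (0.953), and for HPGDS they were RTN1 (0.955), KRT3 (0.941) and HPGD (0.884). For PRG2 they were PNPLA1 (0.885), RPL7P45 (0.868) and RHEX (0.844), and for TPSB2 IGSF9B (0.905), TAS2R60 (0.9) and MIR4697HG (0.864). For FCER1A they were IGLC2 (0.917), RAP1GAP (0.915) and GABRA4 (0.889), and for MS4A2 C4orf46 (0.768), AP1S3 (0.767) and GLB1L2 (0.755).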

How the data were processed

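Raw read counts per gene were deposited by the authors as 1 table of whole numbers for all 96 libraries. Per the labels' protocols, RNA was purified from TRIzol with the RNeasy Mini Kit and libraries were made with a stranded total RNA kit. Trimmomatic 0.36, STAR 2.4.2a, HTSeq 0.6.0 and GRCh38 are named, per the submitters' processing notes. Which annotation release was counted, and with what strand setting, is not given in the sources used here. The 3558 rows with no symbol in GENCODE 29 held 0.0417% of the counts. Every column was used.

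Counts were fitted in R 4.3.3 with edgeR 4.0.16 (TMM, filterByExpr with a minimum count of 10, quasi-likelihood test), within each line (8 groups, 8 residual degrees of freedom) and across lines on sums of 2 libraries with the line as a block. Adjusted p-values are Benjamini-Hochberg values over all genes tested, and a gene was called at adjusted p under 0.05. Levels are CPM scaled over all 96 libraries. Counting intervals are exact at 95% and, like bounds from 3 counts, cover counting error only. The fits were tested on simulated data. Alternatives were DESeq2 1.42.0, other scaling, no filter, the replicate number as a block, offsets for GC content and length, and leaving out libraries or lines. Replicate numbers were not used to pair libraries. The genes, the lists, the 5 libraries set apart and the rule for other genes that are named (called in at least 2 lines in 1 direction with the same drug at day 4, ranked by the number of lines and then size, beside GATA1, GATA2, KIT, CYP26A1 and CD38) were chosen with earlier results of these data known.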

Additional observations from a re-analysis of the deposited data

Results flagged for a closer look

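The response at day 4 differed between the 6 lines for several of the genes, by an F test of the interaction of line and drug in edgeR over the 48 day 4 libraries, adjusted over all genes. With Combo the adjusted p was 2.6e-06 for HPGDS, 0.000822 for PRG2, 0.00941 for MS4A2, 0.0152 for FCER1A, 0.0155 for TPSB2 and 0.0289 for HDC. With ATRA it was 6.13e-06 for HPGDS and 0.000754 for PRG2. With 552A it was 0.022 for PRG2. Of all genes tested, 33.6% differed between lines with Combo, 31.4% with ATRA and 5.69% with 552A. The test could not decide for genes with almost no counts in most lines.

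HL60 stood apart from the other 5 lines for HPGDS at day 4. Its log2 ratio to DMSO, on the scale of group means with 0.1 CPM added, was 5.01 with Combo and 4.5 with ATRA, and the gap to the next line passed the 95% critical value of Dixon's test. With 24 groups of 6 lines looked at, chance alone gives about 1 such value in 20 groups.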

How the results depend on the processing

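No called result changed direction under any setting tried. Values that passed no test could change sign, such as that of HPGDS across lines with ATRA at day 4, from -0.219 to 0.612 over the settings. Of the 53 calls within lines, 37 held in all fits that left out 1 library and 16 were lost in at least 1, each named beside its result. All 53 held with other size factors, without the filter on low counts and with offsets for GC content and length, and DESeq2 kept 50 of the 52 for which it gave an adjusted p. The same replicate number was not taken to pair libraries, because not every correlation of same-numbered deviations was above 0.1: they ran from -0.774 to 0.879, with medians of 0.0949 to 0.346 in the 6 lines. With the replicate block 51 of the 53 calls held.

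Without the filter on low counts, 552A had 1 pair higher at day 2, 4 higher and 1 lower at day 4, ATRA had 7 lower at day 2, Combo had 12 lower than 552A at day 4, and against ATRA Combo had 1 higher and 3 lower at day 2 and 2 higher at day 4. Across lines the same setting called 1 gene for ATRA and 3 for Combo at day 2, and 3 for ATRA and 2 for Combo at day 4. With GC and length offsets, with or without the replicate block, 552A had 1 pair higher at day 2 and 4 at day 4, ATRA had 8 lower at day 2, and Combo against ATRA had 1 lower at day 2 and 1 higher at day 4; both together gave 1 lower for 552A at day 4, and the offsets alone called 2 genes across lines for Combo at day 2. The replicate block alone gave 2 pairs higher with 552A at day 4, and for Combo against ATRA 1 lower at day 2 and 1 higher at day 4. Without the 5 libraries set apart, 552A had 1 higher at day 2 and 2 at day 4, and Combo against ATRA had 1 lower at day 2 and 2 higher at day 4. DESeq2 called 2 pairs higher with 552A at day 4, and replicate 2 alone called 0 genes across lines for ATRA at day 4. The cause of these shifts was not tested.

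Leaving out 1 library, the pairs lower than DMSO ran from 5 to 9 for Combo and 3 to 5 for ATRA at day 2, and from 7 to 8 for Combo and 4 to 7 for ATRA at day 4; pairs higher with 552A ran from 0 to 1 at day 2 and 0 to 2 at day 4. Combo against 552A ran from 6 to 8 lower at both days, and against ATRA from 0 to 1 lower at day 2 and 0 to 1 higher and 1 to 2 lower at day 4. Leaving out 1 line, the genes called ran from 1 to 2 for Combo and 0 to 1 for ATRA at day 2, and from 0 to 2 for Combo and 0 to 1 for ATRA at day 4. The genes whose DMSO level differed between lines ran from 7 to 9. Most of these genes lie near or under 1 CPM, where few counts stand behind a value, and the effect of depth on the calls was not tested.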
